A study of Mus musculus with 75 samples.

Results

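The proteins of the cytoplasmic ribosome are encoded by Rpl genes for the large (60S) subunit and Rps genes for the small (40S) subunit. Here their mRNA was followed in single cells of the adult mouse cochlea. Genes were taken by symbol, as Rpl or Rps followed by a number, with Rpsa, Rplp0, Rplp1 and Rplp2, and without pseudogenes ending in -ps and the Rps6k kinases. The rule found 84 genes among the 55291 of the count table. By symbol, 49 were 60S genes, 32 were 40S genes and 3 encoded the acidic P-stalk of the 60S subunit. The annotation calls 3 of the 84 pseudogenes (Rpl32l, Rpl6l and Rps4l), and the rule kept them because their symbols do not end in -ps. A filter on low counts kept 11443 genes of the table and 78 of the 84 members. The other 6 (Rpl10l, Rpl32l, Rpl39l, Rpl3l, Rpl6l and Rps10) stayed in every count of members below.

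The study asked whether supporting cells (SCs) of the adult cochlea, the non-sensory neighbours of hair cells (HCs), can be turned into outer hair cells (OHCs), the Prestin-bearing cells that amplify sound. Cells were picked by hand for Tdtomato signal and sequenced as 75 full-length cDNA libraries, 1 cell each, from mice of the C57BL/6 strain. The control groups were 17 WT_P30 OHCs from Slc26a5 CreER/+; Ai9/+ mice given tamoxifen at P20 and P21 and collected at P30, and 16 WT_P60 SCs, mainly pillar and Deiters' cells, from Fgfr3-iCreER+; Ai9/+ mice given tamoxifen at P30 and P31 and collected at P60. A further 42 Tdtomato+ cells, also taken at P60, were from Fgfr3-Atoh1-Ikzf2-DTR mice. These carried Fgfr3-iCreER+, the inducible transgene CAG-LSL-Atoh1+, the inducible knock-in Rosa26 CAG-LSL-Ikzf2/+ and the toxin receptor allele Slc26a5 DTR/+, and in them tamoxifen at P30 and P31 switched on Atoh1 and Ikzf2 in Fgfr3-expressing SCs and diphtheria toxin was given at P36 to kill the endogenous OHCs. The authors had divided these by Myo7a and Prestin (Slc26a5) expression into 3 groups: 15 SCs failing to become HCs, called failing SCs from here on, 16 nascent HCs and 11 OHC-like cells. All 5 groups thus carried an inducible Cre and received tamoxifen, the OHCs were 30 days old against 60 days for every other group, and the groups of induced cells were defined from expression of the same cells.

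Neither the labels nor the methods say which mouse each cell came from, so every group counts as 1 sample. No test between groups was made, and an SD or a range below describes the spread between cells. A count is a read, since the libraries had no molecular identifiers, and intervals on summed counts cover counting error only. Total counts ran from 4264780 to 22934062 per cell. No 2 cells had identical counts. Median genes detected (at least 1 CPM, the unit of counts scaled to library size) were 4777 in OHCs, 6872 in WT_P60 SCs, 8488 in OHC-like cells, 8066 in nascent HCs and 6977 in failing SCs. Library numbers in the labels run in 7 series, called A to G here. All OHCs were in F and all WT_P60 SCs in G, so that series and cell type cannot be told apart there. The 42 induced cells were spread over A to E and share no series with a control. In every comparison below of an induced group with a control, series, genotype and toxin therefore cannot be told apart from cell state.

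The 5 OHC markers Ocm, Slc26a5, Myo7a, Pou4f3 and Espn summed to between 14130 and 50910 CPM in OHCs and to at most 0.303 CPM in WT_P60 SCs. This sum was 1067 to 7704 CPM in OHC-like cells, 397 to 7963 in nascent HCs and 39.5 to 1321 in failing SCs. Myo7a and Slc26a5 had served to define the induced groups, Espn was detected in 15 of 15 failing SCs, and Pou4f3, a hair cell transcription factor, was detected in 1 of 11 OHC-like cells and 17 of 17 OHCs. The 6 SC markers Sox2, Sox10, Bace2, Ceacam16, Fgfr3 and Gjb6 summed to between 1912 and 12760 CPM in WT_P60 SCs, with a median of 0 in OHCs, 313 in OHC-like cells and 1493 in failing SCs. Among markers of other cells, the blood genes Hbb-bs and Hba-a1 summed to 2191 CPM in 1 OHC-like cell, and the 3 macrophage markers were under 1 CPM in all cells but 1 OHC. Pecam1, of endothelium, was detected in 9 of 16 WT_P60 SCs (up to 311 CPM), and its partner marker Cldn5 in 1. In OHCs, Otof, listed for inner hair cells, was detected in 14 of 17 (median 443 CPM) with Slc17a8 in 2, and Snap25, listed for neurons, in 16 of 17. The other neuron markers, Nefl and Nefm, were detected in 5 and 4 of the 17 OHCs (up to 233.5 and 215 CPM). Of the fibroblast markers in failing SCs, Dcn was detected in 4 of 15 and reached 131 CPM, while Col1a1 and Col1a2 reached at most 2.39 and 0.23 CPM. Schwann cell markers summed to at most 77.8 CPM in any cell. The part of such RNA in the results was not tested. OHC-like cell 4 stood apart, with 3348 genes detected and 23.8% of its counts on mitochondrial genes, and members that lose or gain 2-fold without it are named.

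A ribosome holds 1 copy of nearly every ribosomal protein, so cells make these proteins in matched amounts, and the mRNAs are among the most abundant of most cell types. Their synthesis is set mainly at translation: many of the mRNAs begin with a run of pyrimidines that starts at a C, the terminal oligopyrimidine (TOP) tract, through which mTOR signalling and the protein Larp1 control their use. mRNA levels therefore do not measure ribosome output, and a mature hair cell or supporting cell does not divide.

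The tract can be read at the annotated starts of transcription. RefSeq promoters (GRCm38.p6) were matched by symbol for 62 of the 84 members. In the windows that follow, from 10 bases before to 20 bases from the start, capitals mark the longest run of a C followed by at least 4 pyrimidines that begins within 10 bases of the start. The first 4 show the tract in genes of both subunits and of the P-stalk. The last 2 are members that stood out below and have no such run beginning within 10 bases of the start. Both have one farther downstream in the window, left in lower case. Annotated starts are not measured ones, so these windows do not show that either mRNA lacks a tract.
Rps6, chr4:86857348-86857377, minus strand: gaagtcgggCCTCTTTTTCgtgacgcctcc
Rpl35, chr2:39005112-39005141, minus strand: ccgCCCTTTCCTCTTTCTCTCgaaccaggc
Rpl38, chr11:114668570-114668599, plus strand: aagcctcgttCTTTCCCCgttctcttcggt
Rplp2, chr7:141447641-141447670, plus strand: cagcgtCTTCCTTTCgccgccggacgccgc
Rplp0, chr5:115559457-115559486, plus strand: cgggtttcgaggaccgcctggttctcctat
Rpl11, chr4:136053374-136053403, minus strand: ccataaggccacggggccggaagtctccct

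Exactly at the start, 14 of the 62 members (22.6%) had such a run, against 3.01% of the 27025 genes of the promoter table. Within 10 bases on either side, 39 members (62.9%) had one, against 33.3% of all genes. The letters CCGGAAG, the core that ETS factors bind, stood in 40.3% of member promoters against 9.93% of all (300 bases, either strand). GGGCGG, the core of an Sp1 site, was in 59.7% against 38.2%, and AAGATGGC, the core of a YY1 site, was in 8.06% against 3.19%. No member had TATAAA between 40 and 20 bases before its start, against 2.25% of all genes. These are matches of letters, and binding was not measured. Between OHC-like cells and WT_P60 SCs the median log2 difference was 0.23 over the 39 members with a run within 10 bases. It was 0.26 over the 23 without one there, a split that rests on the annotated starts.

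**Figure D1:**
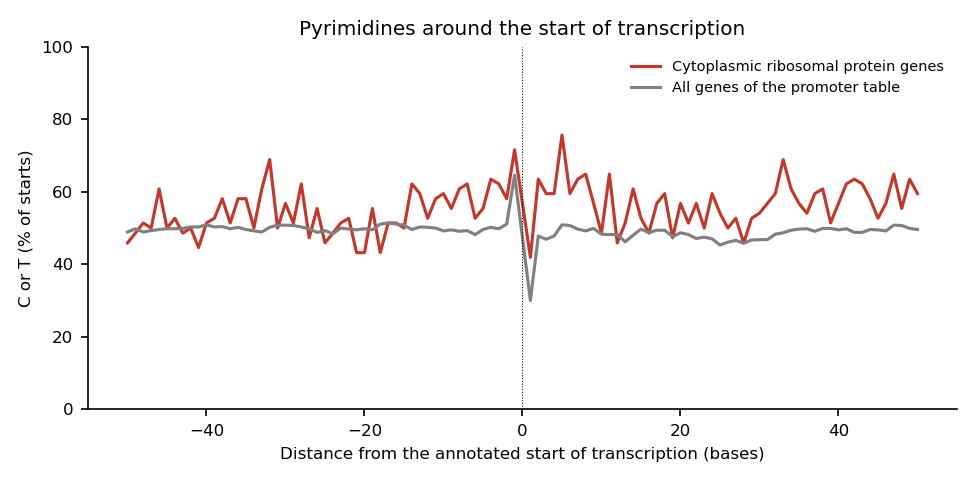
Percent of annotated starts with a C or T at each distance from the start of transcription (x axis, bases; negative is upstream), for ribosomal protein genes (red) and all genes of the promoter table (grey). The red line runs above the grey one over most of the first bases downstream of the start.

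Ribosomal protein mRNA took a similar share of each cell type. In OHCs the 84 genes held 2.07% ± 0.393 of gene counts (SD, n = 17 cells; lowest 1.48, median 1.99, highest 3.16). In WT_P60 SCs they held 1.92% ± 0.278 (n = 16 cells; 1.52, 1.92 and 2.54). OHC-like cells had 2.37% ± 0.379 (n = 11 cells; 1.95, 2.28 and 3.14), and nascent HCs had 2.30% ± 0.598 (n = 16 cells; 1.17, 2.24 and 3.45). Failing SCs had the highest mean and the widest spread, at 2.59% ± 1.09 (n = 15 cells; 1.26, 2.33 and 4.77). The ranges of all 5 groups overlapped, and the largest gap between means, from WT_P60 SCs to failing SCs, was smaller than the SD over the failing SCs. Over summed counts the exact 95% intervals were far narrower than these spreads, for example 2.0393 to 2.0447% in OHCs and 2.3202 to 2.3256% in OHC-like cells.

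In order of the mean, failing SCs came first, followed by OHC-like cells, nascent HCs, OHCs and WT_P60 SCs. Genes of the mitochondrial genome took a median of 10.7% of counts in OHCs, 1.82% in WT_P60 SCs, 6.54% in OHC-like cells, 4.79% in nascent HCs and 2.31% in failing SCs. With those genes left out of the total, the member share became 2.32% in OHCs, 1.96% in WT_P60 SCs, 2.58% in OHC-like cells, 2.42% in nascent HCs and 2.73% in failing SCs, and the order stayed. Within the failing SCs, the member share and the mitochondrial share moved together (15 cells; Pearson r = 0.76, Spearman rho = 0.80; r = 0.80 without the 2 cells farthest from the median mitochondrial share). In the other 4 groups rho lay between -0.35 and 0.23. The member share was lower in cells with more counts in all 5 groups (rho from -0.57 to -0.27), and both quantities in each pair come from the same library.

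The highest cells of the induced groups came partly from series A. Its single OHC-like cell had 3.04%, its single nascent HC had 3.45%, and its 4 failing SCs averaged 2.89% and included the highest cell of all, cell 4, at 4.77%. That cell also had the lowest total of all cells, with 4262 genes detected and 15.3% of its counts on mitochondrial genes. Without it the mean of the failing SCs was 2.43%. Thinning every cell to 4264780 counts left the 5 means at 1.92 to 2.59%.

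**Figure D2:**
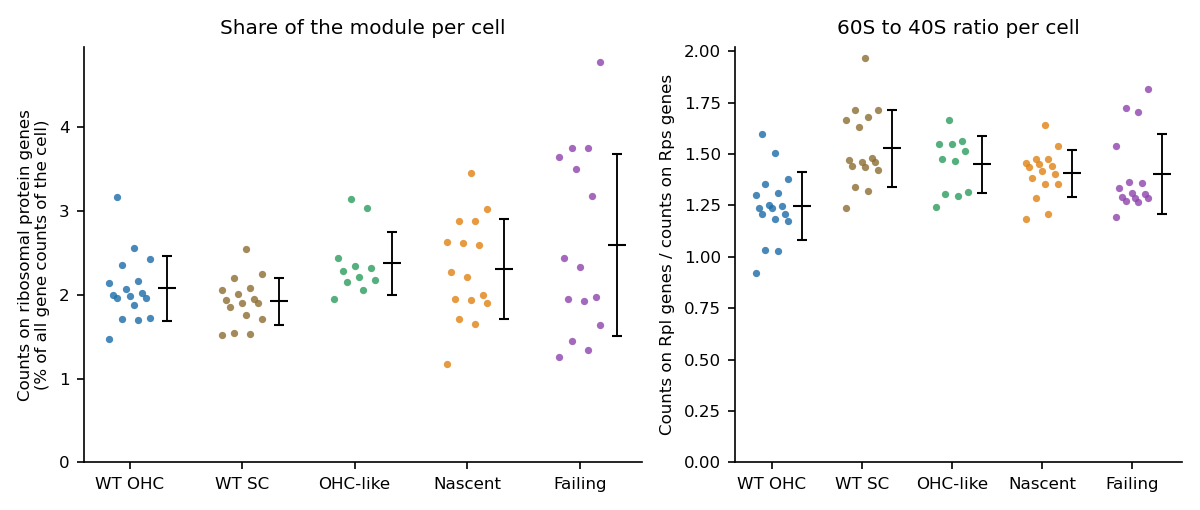
Left, percent of each cell's gene counts on the 84 ribosomal protein genes. Right, counts on Rpl genes, without the P-stalk genes, over counts on Rps genes in each cell. Points are cells, bars are the mean ± SD over cells, and "WT OHC", "WT SC" and "Failing" are the WT_P30 OHCs, the WT_P60 SCs and the failing SCs. The shares overlap in all groups, with the widest spread (1.26 to 4.77%) in failing SCs, and the ratio is lowest on average in OHCs (1.25).

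The mean balance of counts between genes of the 2 subunits was lowest in OHCs, with the P-stalk genes left out of both sides. Counts on Rpl genes were 1.25 ± 0.166 times those on Rps genes in OHCs (n = 17 cells; 0.920 to 1.60) and 1.53 ± 0.186 times in WT_P60 SCs (n = 16 cells; 1.24 to 1.97). The ratio was 1.45 ± 0.137 in OHC-like cells, 1.41 ± 0.115 in nascent HCs and 1.40 ± 0.194 in failing SCs, so that the induced cells lay between the controls and the ranges of all groups overlapped. The 60S share was the same in both controls, at 1.10% in OHCs and 1.11% in WT_P60 SCs. The 40S share was 0.889% ± 0.176 in OHCs and 0.731% ± 0.117 in WT_P60 SCs. Rps29, the first member by counts in OHCs (5.14% of member counts there), is part of this 40S share. Mitochondrial ribosomal proteins, which belong to a separate ribosome, held 0.485% ± 0.0757 of counts in OHCs, 0.470% ± 0.0578 in WT_P60 SCs and 0.505% ± 0.106 in OHC-like cells.

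Members were expressed evenly from cell to cell when set beside other genes. Among genes with a group mean of at least 10 CPM, the median SD of log2 CPM over cells was 0.54 for members and 2.53 for all genes in WT_P60 SCs. In OHC-like cells the 2 values were 0.54 and 2.45, and in nascent HCs 0.53 and 2.33. Members varied more in OHCs (0.89 against 2.86) and in failing SCs (1.06 against 2.67). Members also lay at higher levels (median of 179 CPM against 22.7 for all such genes in OHCs, 261 against 35.3 in OHC-like cells), and low levels vary more in such libraries. The number of members detected in every cell of a group was 56 in OHCs, 72 in WT_P60 SCs, 71 in OHC-like cells, 75 in nascent HCs and 65 in failing SCs.

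Levels per unit of length (TPM) used the merged length of all exons annotated for a gene in GENCODE M21. That length can exceed the transcript: it was 1168 bases for Rpl41, with a transcript of 582, and 383 for both in Rpl36. The ranking thus depends on the annotation. On this scale the first member was Rpl41, which encodes a very short basic peptide between the subunits, at a mean of 1840 TPM over the 5 group means. Rpl36 (1648 TPM), Rplp1 (1507 TPM) and Rps29 (1484 TPM) followed. Rplp0 was at 892 TPM. By counts, Rpl41 was among the first 3 members of every group, with 4.48% of member counts in OHC-like cells and 4.73% in failing SCs. Rps29 led in OHCs (5.14%). Counts were spread widely, since 19 or 20 members were needed to reach 50% of member counts in every group. Turning the composition of one group into that of another required moving 5.28% of member counts between OHC-like cells and nascent HCs, 7.76% between OHC-like cells and failing SCs, 13.3% between OHC-like cells and WT_P60 SCs, 13.8% between the controls and 14.5% between OHC-like cells and OHCs.

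The next paragraphs give differences of log2(mean CPM + 1) after TMM scaling, and "2-fold" is a difference of at least 1 on that scale. Between OHCs and WT_P60 SCs the median member differed by -0.02, against -0.13 over all genes that passed the filter. At least 2-fold higher in OHCs were 3 of the 84 members (3.57%), against 22.8% of all genes. At least 2-fold lower were 6 (7.14%), against 31.8% of all genes. The 3 higher members were Rps29 (1.50), Rps4l (1.31) and Rps24 (1.10). Among the lower members with 10 CPM in either group were Rpl11 (-1.62), Rpl31 (-1.15) and Rpl26 (-1.04). The other 3 lower members, named after their values were seen, were Rpl23a, Rpl32l and Rpl36al, all under 10 CPM. The split of 3 higher and 6 lower became 4 and 5 with library size alone and 2 and 8 with RLE size factors.

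OHC-like cells against WT_P60 SCs had a median member difference of 0.23, against 0.30 over all genes. At least 2-fold higher were 16 members (19.05%), against 31.6% of all genes, and at least 2-fold lower were 2 (2.38%), against 18.3% of all genes. With library size alone 7 members were higher and 3 lower. Rps4l (3.93), Rplp0 (1.55) and Rpl10a (1.52) had the largest differences. On the low side, Rpl30 (-0.51), Rps27 (-0.50) and Rps20 (-0.48) stayed within 2-fold, and the 2 members past it, Rpl24 and Rps10, were under 10 CPM in both groups. Past 2-fold on the high side were also Rpl12, Rpl18, Rpl28, Rpl36, Rps3, Rps13, Rps15, Rps18, Rps19, Rps21, Rps24, Rps28 and Rpsa. Of these, Rpl18 was at 98.6 ± 49.1 CPM in WT_P60 SCs and 262 ± 122 CPM in OHC-like cells, and Rps19 at 241 ± 106 and 540 ± 332 CPM. Without OHC-like cell 4, 9 of the 16 remained at least 2-fold higher, and Rpl28 (0.57), Rpl36 (0.55), Rps3 (0.91), Rps15 (0.84), Rps18 (0.95), Rps19 (0.95) and Rpsa (0.79) did not.

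Nascent HCs and failing SCs were set against the same WT_P60 SCs. In nascent HCs the median was 0.27 against 0.32 over all genes, with 8 members at least 2-fold higher (9.52%, against 30.4% of all genes) and 1 at least 2-fold lower (1.19%, against 16.7%). Rps4l (3.63), Rplp0 (1.40) and Rpl10a (1.35) led again, and Rps27 (-0.74), Rpl39 (-0.54) and Rps29 (-0.51) were lowest among the well expressed. In failing SCs the median was 0.41 against 0.22 over all genes, with 15 members at least 2-fold higher (17.86%, against 27.2% of all genes) and 2 lower (2.38%, against 15.7%). Rps4l (2.89), Rps28 (1.37) and Rpl10a (1.31) led, and Rpl27 (-0.24) and Rpl34 (-0.16) were among the lowest of the well expressed. Of the 84 members, 75 (89.3%) lay above 0 in that comparison, against 58.0% of all genes. Without cell 4 of the failing SCs the median was 0.323, with 0.205 over all genes. Of the 15 members, 8 then remained at least 2-fold higher, and Rpl21 (0.73), Rpl28 (0.65), Rpl35 (0.76), Rps12 (0.78), Rps15 (0.81), Rps18 (0.88) and Rps24 (0.96) did not.

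Against OHCs, OHC-like cells had a median of 0.48, with 0.54 over all genes. Without OHC-like cell 4 the median was 0.347, with 0.545 over all genes. At least 2-fold higher were 15 members (17.86%, against 37.9% of all genes), led by Rps4l (2.62) and Rplp0 (2.33). Rps29 (-1.56) was the only member at least 2-fold lower (1.19%, against 15.0% of all genes). Among members with 10 CPM in either group, Rpl36a (-0.44) and Rps27 (-0.36) came next. With library size alone 8 members were higher. Without OHC-like cell 4, 12 of the 15 remained, and Rpl6 (1.22 with it, 0.88 without), Rpl8 (1.02 and 0.40) and Rpl26 (1.08 and 0.98) did not. All 3 comparisons with WT_P60 SCs and this one share control or OHC-like cells, so likeness between them carries no independent weight.

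Among the induced cells the members differed less. OHC-like cells against nascent HCs had a median of 0.10 (-0.01 over all genes). Without OHC-like cell 4 it was -0.000131 (0.0123 over all genes). In this comparison 1 member was at least 2-fold higher (1.19%, against 10.5% of all genes) and 1 lower (1.19%, against 11.6%), both under 10 CPM. Among members with 10 CPM in either group, Rpl36 (0.64), Rpsa (0.60) and Rpl8 (0.53) led. Rpl36 and Rpl8 rested on OHC-like cell 4: without it Rpl36 stood at 0.00, Rpl8 at -0.09 and Rpsa at 0.33. Rpl7a (-0.44), Rpl11 (-0.32) and Rpl30 (-0.31) were the lowest members above the same 10 CPM. Within library series the medians were 0.07 in B (5 against 6 cells), 0.34 in D (3 against 4 cells), -0.04 in E (2 against 4 cells) and 0.00 in A (1 cell each). OHC-like cells against failing SCs had a median of -0.05 (0.05 over all genes), with 1 member at least 2-fold higher (1.19%, against 22.5% of all genes), Rps4l at 1.05, and 3 lower (3.57%, against 19.5%). Rpl8 (0.84) and Rps21 (0.76) followed Rps4l, and Rpl8 rested on OHC-like cell 4, at 2012 CPM with the next cell at 492: without it the group mean was 289 instead of 445 CPM and the difference 0.22. Rps20 (-1.24), Rps12 (-1.02) and Rpl26 (-0.93) were the lowest above 10 CPM, and without cell 4 of the failing SCs they stood at -0.81, -0.78 and -0.49. Without OHC-like cell 4 no member was at least 2-fold higher (Rps4l at 0.81), and 5 were lower, with Rpl26 (-1.03) and Rpl31 (-1.03) added. Within series the medians were -0.07 in A (1 against 4 cells) and -0.14 in E (2 against 1 cell). In all 7 comparisons the percentage of members past 2-fold was below that of the genes that passed the filter in both directions, beside the higher levels and smaller spread over cells given above. That reading depends on the filter. Over the 29042 genes with any count, 18.8% were past 2-fold on the high side between OHC-like cells and WT_P60 SCs, slightly under the 19.05% of members, and 18.2% between failing SCs and WT_P60 SCs, close to the 17.86% of members.

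**Figure D3:**
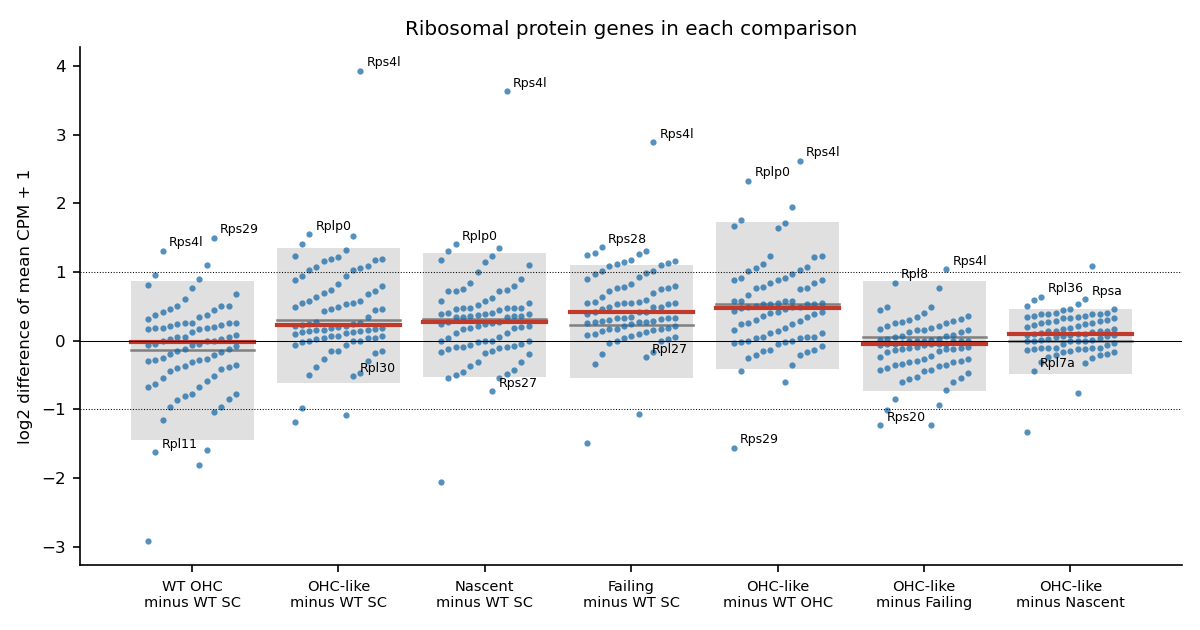
Difference of log2(mean CPM + 1) for each of the 84 members (blue points) in the 7 comparisons, with short group names as in the plot of shares. Red lines are member medians, grey lines and boxes the median and quartiles of the 11443 genes that passed the filter, and dotted lines mark 2-fold. Most members lie inside the grey boxes, with Rps4l, Rplp0 and Rps29 farthest out among well expressed members.

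The P-stalk recruits the elongation factors to the ribosome. Rplp0 anchors it, and Rplp1 and Rplp2 bind to Rplp0 as pairs. Rplp0 (chr5:115559467-115563727 in GRCm38, plus strand, protein coding) was at 350 ± 92.9 CPM in WT_P60 SCs (n = 16 cells; lowest 177, median 337, highest 504). In OHCs it was at 203 ± 156 CPM (n = 17 cells; 0, 181 and 429), and 8 of the 17 were below every WT_P60 SC. OHC-like cells had 1023 ± 356 CPM (n = 11 cells; 591, 935 and 1888). Every OHC-like cell was thus above every cell of both controls, as were 0.83% of all genes against WT_P60 SCs and 0.717% against OHCs. Nascent HCs had 925 ± 322 CPM (451, 962 and 1342), with 13 of 16 above every WT_P60 SC. Failing SCs had 850 ± 400 CPM (280, 924 and 1833), with 12 of 15 above every WT_P60 SC, so the 3 induced groups overlapped widely. Over 11 settings of the processing the difference between OHC-like cells and WT_P60 SCs stayed between 1.38 and 1.55.

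The other stalk genes differed less. Rplp2 was at 193 CPM in OHCs, 187 in WT_P60 SCs, 279 in OHC-like cells, 280 in nascent HCs and 224 in failing SCs, and 7 of 11 OHC-like cells were above every WT_P60 SC. Rplp1 was at 375 CPM in OHCs, 290 in WT_P60 SCs, 314 in OHC-like cells, 285 in nascent HCs and 423 in failing SCs, with overlapping ranges. The 3 genes together held 0.146% of counts in OHC-like cells (0.116 to 0.176), above all WT_P60 SCs (0.0625 to 0.0983). Their mean share was 0.14% in both nascent HCs and failing SCs, so it was not particular to OHC-like cells. OHCs (0.0426 to 0.151%) overlapped the OHC-like cells.

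Rps29 encodes a small zinc-binding protein of the 40S head. It lies on chr12:69157722-69159186, minus strand. OHCs had 962 ± 221 CPM (n = 17 cells; lowest 550, median 946, highest 1519), and WT_P60 SCs had 340 ± 78.9 CPM (n = 16 cells; 195, 344 and 455). Every OHC was above every WT_P60 SC, as were 1.08% of all genes. OHC-like cells had 326 ± 131 CPM (n = 11 cells; 186, 274 and 641), and 10 of the 11 were below every OHC. Nascent HCs had 239 ± 66.3 CPM (136, 240 and 359), all below every OHC, and failing SCs had 475 ± 365 CPM (84.5, 426 and 1535). By this gene the OHC-like cells lay with the WT_P60 SCs. In this gene, cell type, age and library series cannot be told apart for OHCs against the other groups. The difference between OHCs and WT_P60 SCs ran from 1.38 to 1.62 over the settings.

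Rps4l is an intronless relative of Rps4x, a 40S gene. It is on chr6:148354656-148355598, plus strand, and the annotation calls it a transcribed processed pseudogene. Over the windows of 100 bases used to look for near-identical copies, 1.66% of it was shared with another gene. It reached 1 CPM in 3 of 17 OHCs and in 4 of 16 WT_P60 SCs, with means of 22.2 and 8.36 CPM. It did so in 11 of 11 OHC-like cells, at 142 ± 97.4 CPM (lowest 32.0, median 121, highest 361), in 16 of 16 nascent HCs, at 115 ± 75.3 CPM (18.0, 98.8 and 323), and in 11 of 15 failing SCs, at 68.2 ± 58.7 CPM (0, 73.4 and 177). In OHC-like cells 10 of 11 were above every WT_P60 SC. In OHCs the mean came from few cells: without the highest cell, at 184 CPM, it was 12.1 CPM. The controls were near 0, and the difference between OHC-like cells and WT_P60 SCs ran from 3.05 to 6.93 over the settings. Rps4x, on the X chromosome, had 329 CPM in OHCs, 343 in WT_P60 SCs, 554 in OHC-like cells (421 without cell 4), 476 in nascent HCs and 495 in failing SCs, with overlapping ranges. The other 40S variant, Rps27l, a paralog of Rps27 that p53 can switch on, had 123 CPM in OHCs, 167 in WT_P60 SCs and between 178 and 210 in the induced groups.

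The 60S variants among the members had few or no counts. Rpl10l and Rpl39l, known from the testis, had no count in any of the 75 cells, which allows up to 0.0045 CPM over all cells (3 of 666465656 counts). Rpl3l, known from muscle, had 5 counts in all. Rpl36al was detected in 0 of 17 OHCs, 7 of 16 WT_P60 SCs, 4 of 11 OHC-like cells, 1 of 16 nascent HCs and 6 of 15 failing SCs, with group means of at most 6.60 CPM. Exons of other genes on the same strand cover 24.5% of the exon length of Rpl36al, and the part of this in its low counts was not tested.

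Rpl5 and Rpl11 bind the 5S rRNA, and outside the ribosome this complex can hold Mdm2 and so stabilise p53. Rpl11 (chr4:136028265-136053428, minus strand) was at 145 ± 60.5 CPM in WT_P60 SCs (n = 16 cells; lowest 67.0, median 134, highest 279). In OHCs it was at 46.6 ± 45.6 CPM (n = 17 cells; 0, 45.3 and 138), it reached 1 CPM in 11 of 17, and 13 of 17 were below every WT_P60 SC. Of its windows of 100 bases 59.7% were shared with other genes, so the level is less certain than that of Rplp0 (18.3%). OHC-like cells had 111 CPM, nascent HCs had 139 CPM and failing SCs had 182 CPM, all overlapping the WT_P60 SCs. Rpl5 followed in the same order in the controls, with 248 ± 159 CPM in OHCs and 395 ± 111 CPM in WT_P60 SCs, and 91.1% of its windows were shared. OHC-like cells had 458 CPM of Rpl5.

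**Figure D4:**
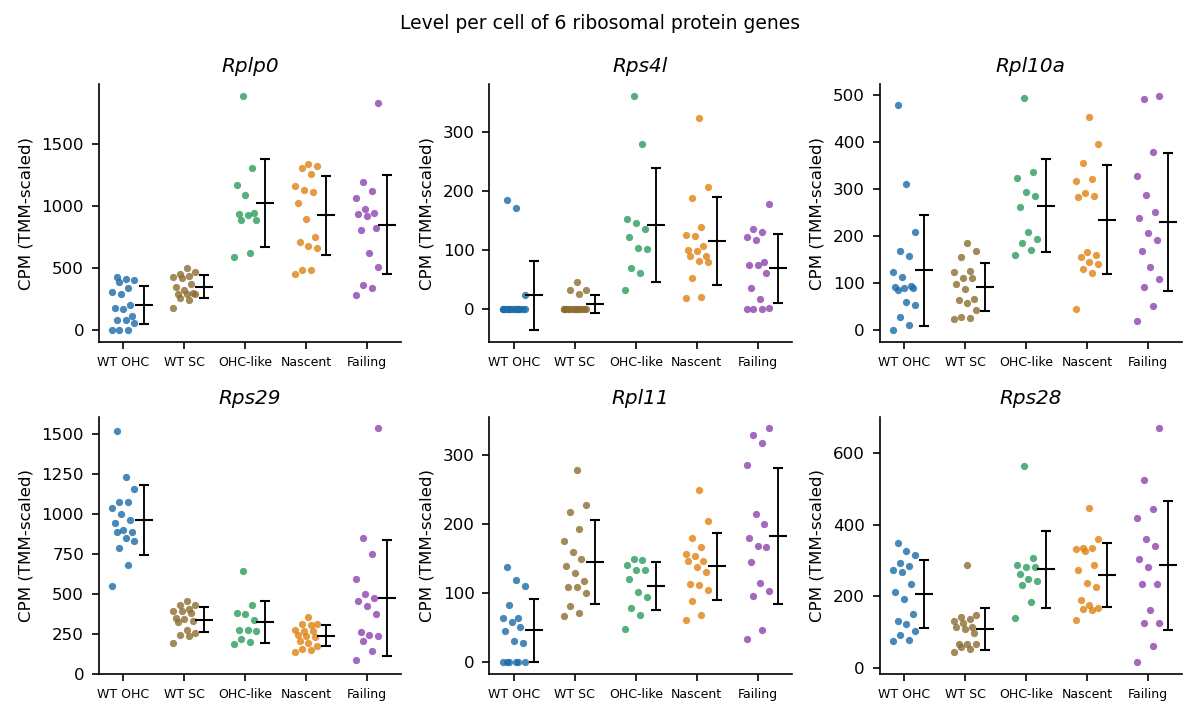
TMM-scaled CPM of 6 ribosomal protein genes in each cell; points are cells, bars the mean ± SD over cells, and group names are as in the plot of shares. Rplp0 is higher in every OHC-like cell (591 to 1888) than in every control cell, Rps29 is higher in every OHC (550 to 1519) than in every WT_P60 SC, Rpl11 is lowest on average in OHCs and Rps28 in WT_P60 SCs.

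Other 40S genes fell into several patterns. Rps28, a protein of the 40S head, was at 207 ± 94.4 CPM in OHCs (n = 17 cells; lowest 74.9, median 212, highest 350), 111 ± 58.6 in WT_P60 SCs (n = 16 cells; 44.9, 112 and 289) and 276 ± 107 in OHC-like cells (n = 11 cells; 140, 263 and 563), with ranges that overlapped. Rps24, in which mutations cause Diamond-Blackfan anaemia, was at 212 ± 147 CPM in OHCs, 98.0 ± 63.1 in WT_P60 SCs and 229 ± 61.2 in OHC-like cells. Rps3, which lines the mRNA entry, was at 488 ± 184 CPM in OHCs, 471 ± 103 in WT_P60 SCs, 956 ± 314 in OHC-like cells and 1037 ± 424 in nascent HCs; it and Rps13 (114 CPM in WT_P60 SCs, 261 in OHC-like cells) were chosen after their values were seen. Rps6, the substrate of the S6 kinases, was at 220 ± 154 CPM in OHCs, 386 ± 111 in WT_P60 SCs and 319 ± 91.6 in OHC-like cells.

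Among 60S genes, Rpl10a, a protein of the mobile L1 stalk, was at 92.1 ± 51.5 CPM in WT_P60 SCs (n = 16 cells; lowest 23.4, median 92.5, highest 185) and 265 ± 98.4 in OHC-like cells (n = 11 cells; 160, 262 and 494), and 8 of 11 OHC-like cells were above every WT_P60 SC. OHCs had 127 ± 118 CPM. Rpl31 and Rpl26, which lie near the exit of the peptide tunnel, were low in OHCs: Rpl31 was at 131 ± 53.2 CPM against 292 ± 78.3 in WT_P60 SCs, with 14 of 17 OHCs below every WT_P60 SC. Rpl26 was at 124 ± 126 CPM against 256 ± 72.9, with 11 of 17 below. Their means in failing SCs, 556 and 501 CPM, rested on cell 4 (3146 and 2357 CPM), without which they were 371 and 368 CPM. Rpl38, known for its role in Hox mRNA translation, was at 97.2 CPM in OHCs, 84.0 in WT_P60 SCs and 95.5 in OHC-like cells.

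Some members had few counts although every ribosome contains their protein. Group means were at most 6.75 CPM for Rpl13a, 9.33 for Rpl23a, 4.22 for Rpl24 and 1.52 for Rps10. In the annotation, exons of other genes on the same strand cover 47.0% of the exon length of Rpl24, 35.4% of Rpl13a, 20.6% of Rps10 and 2.60% of Rpl23a, and exons on the opposite strand cover 59.7% of Rpl23a. Reads shared by overlapping genes are commonly left uncounted, and the part of this in the low counts was not tested. Of the 84 members, 38 overlap another gene's exons, 75 share windows of 100 bases with another gene (median 31.5% of the windows), and 28 share more than 50% of them. The 319 -ps pseudogenes held 0.027% of counts.

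The wider machinery of translation was read from lists, all against WT_P60 SCs. Counts past 2-fold in these lists were not recomputed under the alternatives. The shares of all genes to set beside their counts were 22.8% higher and 31.8% lower in OHCs and 31.6% higher and 18.3% lower in OHC-like cells. Of 56 genes of ribosome assembly and rRNA synthesis, 28 (50.0%) were at least 2-fold higher and 3 (5.36%) lower in OHC-like cells, with a median of 1.03 against 0.30 over all genes. The same list had 13 higher and 13 lower in OHCs (23.2% each), with a median of -0.04. In nascent HCs the list had 23 higher (41.1%, against 30.4% of all genes) and 6 lower (10.7%, against 16.7%). In failing SCs it had 21 higher (37.5%, against 27.2%) and 2 lower (3.57%, against 15.7%). Nop2, a methyltransferase of the large rRNA, was at 4.94 CPM in WT_P60 SCs, 61.5 in OHCs and 80.0 in OHC-like cells, and Polr1b, a subunit of RNA polymerase I, was at 0.382, 7.74 and 18.8 CPM. Without the highest cell of each group Nop2 was at 0.0275, 40.5 and 32.0 CPM and Polr1b at 0.157, 3.62 and 12.9 CPM, so that single cells set much of both. Wdr12, of large-subunit assembly, was higher in OHCs (349 ± 225 CPM) than in WT_P60 SCs (47.8 ± 88.0). Dkc1, the pseudouridine synthase of small nucleolar RNPs, was lower (3.56 ± 13.3 against 57.3 ± 55.8 CPM), and was detected in 2 of 17 OHCs and 10 of 16 WT_P60 SCs. Taf1a, of the polymerase I initiation complex, was detected in 10 of 16 WT_P60 SCs (mean 43.1 CPM), in 1 of 17 OHCs (52.8 CPM) and in 1 of 11 OHC-like cells (51.5 CPM). Utp20, of small-subunit assembly, was detected in 6 of 16 WT_P60 SCs (up to 101 CPM) and 2 of 11 OHC-like cells (up to 13.8 CPM).

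Of 8 genes listed as elongation factors, 3 (37.5%) were at least 2-fold higher and 0 lower in OHC-like cells (median 0.68), a share near that of all genes on the high side. The 3 were Eef1e1, Eef2 and Eef1d. Eef1d was at 191 CPM in OHC-like cells (150 without the highest cell) and 87.1 in WT_P60 SCs, so its place rested on 1 cell. Eef2, the translocase, was at 1407 ± 878 CPM in OHC-like cells, 574 ± 226 in WT_P60 SCs and 348 ± 262 in OHCs. Eef1a1, which brings tRNA to the ribosome, was at 3942 ± 843 CPM in WT_P60 SCs, 1276 ± 521 in OHCs and 2839 ± 675 in OHC-like cells, and the OHCs (352 to 2550 CPM) overlapped the WT_P60 SCs (2150 to 5234 CPM) only at their edge. Of 29 initiation factors, 3 (10.3%) were higher and 7 (24.1%) lower in OHCs, and 3 (10.3%) were higher and 1 (3.45%) lower in OHC-like cells. Eif4a1, the helicase, was at 61.6 CPM in OHCs and 227 in WT_P60 SCs, while Eif4e, which binds the cap, was at 295 and 101 CPM. Of 19 other mRNAs known to carry a TOP tract, 2 (10.5%) were higher and 4 (21.1%) lower in OHCs, and 5 (26.3%) higher and 1 (5.26%) lower in OHC-like cells. Vim, an intermediate filament protein, was the lowest, detected in 7 of 16 WT_P60 SCs (mean 40.8 CPM), 1 of 17 OHCs and 2 of 11 OHC-like cells (mean 5.12 CPM, 0.240 without the highest cell).

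Of 17 regulators of ribosomal protein synthesis, 1 (5.88%) was higher and 3 (17.6%) lower in OHCs, and 6 (35.3%) were higher and 2 (11.8%) lower in OHC-like cells, the last pair near the shares of all genes on the high side and under them on the low side. Mycl, a Myc family factor, was at 0 in every OHC, 2.88 ± 10.6 CPM in WT_P60 SCs (0.240 without the highest cell), 274 ± 220 in OHC-like cells, 381 ± 247 in nascent HCs and 232 ± 318 in failing SCs. Myc was at 0 in every OHC, 2.59 CPM in WT_P60 SCs (0.546 without the highest cell) and 22.9, 40.8 and 57.0 CPM in the 3 induced groups. Larp1, the TOP-binding protein, was at 34.4 CPM in OHCs, 64.9 in WT_P60 SCs and 106 in OHC-like cells, with ranges that all overlapped. Mitochondrial ribosomal proteins had 16 of 78 higher (20.5%) and 2 lower in OHC-like cells, with a median of 0.27 beside 0.23 for the cytoplasmic members. The medians lay further apart for failing SCs minus WT_P60 SCs (0.07 and 0.41) and for OHC-like cells minus failing SCs (0.33 and -0.05). Ribosomal proteins under symbols outside the rule were also read. Fau, which encodes Rps30, was at 94.2 CPM in OHCs, 148 in WT_P60 SCs and 250 in OHC-like cells, and Rps3a1 was at 385, 577 and 373 CPM. Rpl22l1, a paralog of Rpl22, was at 8.74 CPM in OHCs and 45.1 in WT_P60 SCs, and Rpl7l1 was at 65.8 and 57.7 CPM.

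**Figure D5:**
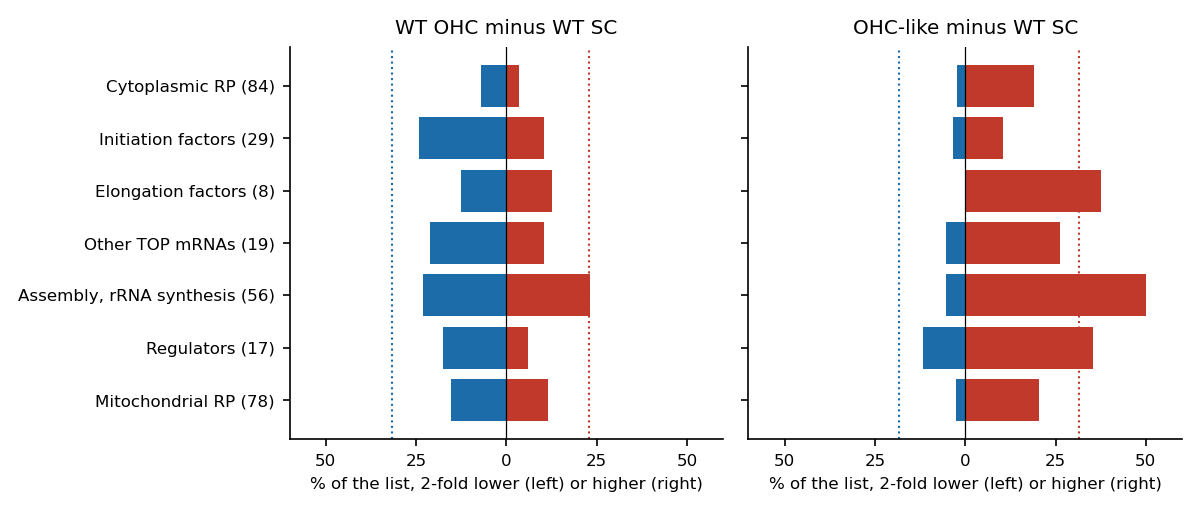
Percent of each list (size in brackets) at least 2-fold higher (red, right) or lower (blue, left) in OHCs (left panel) or OHC-like cells (right panel) than in WT_P60 SCs; dotted lines are the same percentages over the 11443 genes that passed the filter. In OHC-like cells 28 of 56 genes of ribosome assembly and rRNA synthesis are higher, against 16 of 84 cytoplasmic ribosomal protein genes. Without OHC-like cell 4 the 16 became 9, and the counts of the other lists were not recomputed without that cell.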

How the data were processed

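The deposited table holds raw counts of reads per gene, made by the authors from paired-end Smart-Seq reads of 75 single cells. Per the labels and the study's methods, quality control used FastQC (0.11.9), trimming Trimmomatic (0.39), alignment to GRCm38 HISAT2 (2.1.0) and counting HTSeq (0.10.0); StringTie (1.3.5) is also named. The annotation release and strand setting are not given in the sources used here. A row for the WPRE sequence (0.025% of counts) was left out.

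Counts were scaled to CPM with TMM factors in edgeR (4.0.16). Group levels are means over cells, compared as log2(mean + 1). Genes were kept by filterByExpr with a minimum count of 10. Means, SDs and exact 95% binomial intervals on summed counts were computed in Python (3.11.15; scipy 1.17.1), and the code was tested on simulated data. The total count per cell ranged from 4264780 to 22934062. TPM, overlaps and shared windows used GENCODE M21 on GRCm38. No test between groups was made.

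Members and lists were chosen with earlier results of these data known. Named members were the 5 of highest TPM, the 3 most positive and 3 most negative in each of the 7 comparisons with 10 CPM in either group, the variants, P-stalk, 5S-binding proteins and other symbols, and Rps6 and Rpl38. Of each other list the 2 most positive and 2 most negative genes in OHCs or OHC-like cells against WT_P60 SCs qualified. Some genes that qualified are not reported here. Alternatives covered scaling, group level, pseudocount, fold, filter, single cells left out, thinning, mitochondrial genes, a wider rule and library series.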

Additional observations from a re-analysis of the deposited data

How the results depend on the processing

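No result changed direction while past 2-fold, and no median over the members moved by more than 1 SD of its cells. That limit was wide: the SD over cells of the log2 sum of member CPM was 0.19 in WT_P60 SCs and 0.68 in failing SCs. Some medians could reach 0 within it, so it does not show that they are stable. The median of OHC-like cells minus OHCs ran from 0.21 to 0.49. Of the shares, medians and counts recomputed under the alternatives, 238 stayed within 1 SD or 1.5 times and 57 moved, all but 2 of them counts of members past 2-fold. Medians close to 0 took either sign: OHCs minus WT_P60 SCs ran from -0.12 to 0.04, and OHC-like cells minus failing SCs from -0.18 to 0.01. The median over all genes shifted with scaling by more than 0.1, as in OHC-like cells minus WT_P60 SCs (0.11 to 0.33 over the settings), and members relative to all genes ran from -0.11 to 0.11 there and from 0.10 to 0.30 in failing SCs minus WT_P60 SCs. With library size alone, members higher by 2-fold or more numbered 7 in OHC-like cells and 8 in failing SCs against WT_P60 SCs (1 lower). They numbered 8 in OHC-like cells against OHCs and 0 against failing SCs. The shares of all genes beside these higher counts were 28.6%, 25.9%, 32.9% and 20.6%. With RLE factors, members higher numbered 4 in nascent HCs and 8 in failing SCs against WT_P60 SCs (1 lower), and 0 in OHC-like cells against failing SCs. The shares of all genes higher were 26.3%, 27.7% and 20.7%. With TMMwsp, OHC-like cells against failing SCs had 0 higher and 5 lower, beside 19.9% and 22% of all genes. With summed counts that comparison had 0 and 1 (22.9% and 19% of all genes), and failing SCs against WT_P60 SCs had 8 higher (26.6% of all genes). With medians over cells, OHCs against WT_P60 SCs had 1 higher and 10 lower, failing SCs had 6 and 0, OHC-like cells against failing SCs had 0 and 0, and the lower counts of OHC-like cells and nascent HCs against WT_P60 SCs, and of OHC-like cells against nascent HCs, were 0. The shares of all genes were then 11.2% higher and 36.5% lower in OHCs against WT_P60 SCs. For failing SCs against WT_P60 SCs they were 19.6% and 18.5%. A pseudocount of 0.1 gave 2 lower against OHCs, and 2 higher and 2 lower against nascent HCs. A pseudocount of 10 gave 2 lower in OHCs against WT_P60 SCs, 0 lower in the 3 induced groups against them, 0 higher and 1 lower against failing SCs, and 0 and 0 against nascent HCs. Of all genes, 21.9% were then lower in OHCs, 12.2% in OHC-like cells, 10.7% in nascent HCs and 8.91% in failing SCs, each against WT_P60 SCs. At a fold of 4, OHCs against WT_P60 SCs had 0 higher and 1 lower, each induced group had 1 higher, with 0 lower in OHC-like cells and failing SCs, OHC-like cells against OHCs had 2 and 0, and the other comparisons of OHC-like cells had 0 and 0. The shares of all genes at that fold were not computed. Without OHC-like cell 4, counts were 9 higher against WT_P60 SCs and 0 higher and 5 lower against failing SCs. Thinning gave 0 higher in the latter. Without cell 4 of the failing SCs, an alternative chosen after seeing the data, they had 8 higher and 1 lower against WT_P60 SCs, and OHC-like cells had 0 higher and 1 lower against them. Within series A the share was 3.04% in the OHC-like cell and 3.45% in the nascent HC. Of the values for named members 415 stayed, and the 5 that moved were Rps4l in 4 comparisons and Rpl36 in OHC-like cells minus nascent HCs. With no filter the genes past 2-fold on the high side between OHC-like cells and WT_P60 SCs came to 18.8% of 29042 genes. Leaving out the highest cell of a group for genes of the other lists was also chosen after seeing the data. The cause of these shifts was not tested. No paired analysis was possible because the replicate numbers only name cells and pair none across groups. The library series that induced groups share gave the contrasts within series that stand in the report, as differences with no test.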

Other observations

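Across the 74 members whose mean reached 10 CPM in either group, the difference between OHC-like cells and OHCs ranked with transcript length at rho = 0.36, and that between OHCs and WT_P60 SCs at rho = -0.17. With the share of windows held in common with other genes, rho lay between -0.16 and -0.01 over the 7 comparisons. These values are across genes of the same libraries, and genes are not independent replicates.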
